A study of Mus musculus with 12 samples.

Results

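Sqstm1, Map1lc3a, Map1lc3b, Gabarapl1, Gabarapl2, Ulk1, Uvrag, Wipi1, Becn1 and Atg5 are 10 genes of the autophagy machinery, taken by their symbols from the 24421 symbols counted in the mouse RNA of brain tumours driven by YAP1 fusion genes. All 10 were found, and all 10 passed the filter on low counts that left 16364 genes for testing. The tumours were raised by injecting RCAS viruses into the brain, each virus carrying a fusion of YAP1, the co-activator held in check by the Hippo pathway. RCAS vectors are avian retroviruses that infect only cells bearing the avian receptor. There were 3 libraries each of tumours with YAP1-TFE3, of tumours with YAP1-FAM118B, of tumours with YAP1-MAMLD1-dR3R1 (the labels do not explain the suffix) and of normal cortex of naive mice that had no injection. The sources used here do not give the mouse line, its age, the promoter that drives the receptor, or whether a library came from 1 animal or a pool. The whole tissue was used, so tumour and host cells were read together.

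Autophagy wraps cytoplasm, damaged organelles and protein aggregates in a double membrane, the autophagosome, which then fuses with the lysosome. The ULK1 kinase complex starts the process, and a lipid kinase complex built on BECN1 marks the membrane with a lipid that WIPI proteins read. The conjugation machinery that contains ATG5 ties small ubiquitin-like proteins of the ATG8 family (LC3 and GABARAP) to the membrane. SQSTM1, also called p62, carries ubiquitin-tagged cargo to those proteins and is itself degraded with it. Neurons depend on autophagy for their survival. TFE3 belongs to a family of transcription factors that switch on lysosomal and autophagy genes. RNA levels say nothing of how fast autophagosomes form or are degraded.

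The genes did not move as a block. Sqstm1, Gabarapl2 and Uvrag were higher in YAP1-TFE3 tumours than in naive cortex or in YAP1-FAM118B tumours, under all 23 other settings tried. Sqstm1 and Gabarapl2 were also higher there than in YAP1-MAMLD1-dR3R1 tumours under all 23. Gabarapl1 and Map1lc3a were lower than in naive cortex in YAP1-TFE3 and in YAP1-MAMLD1-dR3R1 tumours. Gabarapl2 was lower than in naive cortex in YAP1-MAMLD1-dR3R1 tumours, which also held the lowest levels of Ulk1. Becn1 passed the test in 0 of 6 comparisons.

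Total counts were between 19850220 and 24760814 per library. Levels are given as CPM, the count relative to a library size scaled by trimmed means (TMM). Changes are given as log2 fold change ± SE from edgeR's quasi-likelihood test, with p-values adjusted by Benjamini-Hochberg over all genes tested and called at 0.05. The 3 fusion groups were each compared with the same naive libraries, so those comparisons are not independent of each other. Labels do not say that the replicates came from separate animals, so the p-values measure the spread between these libraries, which may be technical. In bulk tissue, fewer cells of a type and less RNA per cell cannot be told apart. Yap1 averaged 103 CPM in YAP1-TFE3, 76.7 CPM in YAP1-FAM118B and 89.0 CPM in YAP1-MAMLD1-dR3R1 tumours, against 23.4 CPM in naive cortex. Tfe3 averaged 126 CPM in YAP1-TFE3, 55.1 CPM in YAP1-FAM118B and 85.8 CPM in YAP1-MAMLD1-dR3R1 tumours, against 39.7 CPM in naive cortex. Fam118b averaged 51.2 CPM in YAP1-TFE3, 45.1 CPM in YAP1-FAM118B and 18.7 CPM in YAP1-MAMLD1-dR3R1 tumours, against 16.8 CPM in naive cortex. It was not called between YAP1-TFE3 and YAP1-FAM118B tumours (adjusted p = 0.573, edgeR). Mamld1 averaged 9.55 CPM in YAP1-TFE3, 13.97 CPM in YAP1-FAM118B and 28.2 CPM in YAP1-MAMLD1-dR3R1 tumours, against 25.8 CPM in naive cortex. It was not called between YAP1-MAMLD1-dR3R1 tumours and naive cortex (adjusted p = 0.829, edgeR). Whether fusion transcripts contributed to these counts was not tested. YAP1-FAM118B replicate 2 and naive replicate 2 held both Xist, made by the inactive X chromosome of females, and Y-linked Ddx3y, while all 3 YAP1-TFE3 libraries held Ddx3y with less than 1 CPM of Xist. Naive replicate 3, YAP1-MAMLD1-dR3R1 replicate 1 and YAP1-FAM118B replicate 1 held Xist with less than 1 CPM of Ddx3y. These markers were thus not balanced between YAP1-TFE3 and the other groups, and the part of sex in the differences was not tested.

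To show what lies in front of the genes whose levels set YAP1-TFE3 tumours apart, the 250 bases before the RefSeq transcription start are printed for Sqstm1, Gabarapl2 and Uvrag, with Gabarapl1 as the ATG8 gene that was lower there and Atg5 as the member whose window holds the E-box of the TFE factors. Sequences are from RefSeq, build GRCm38.p6, written 5′ to 3′ on the strand of the gene, with motif matches in capitals.
Sqstm1 chr11:50210821-50211070, minus strand: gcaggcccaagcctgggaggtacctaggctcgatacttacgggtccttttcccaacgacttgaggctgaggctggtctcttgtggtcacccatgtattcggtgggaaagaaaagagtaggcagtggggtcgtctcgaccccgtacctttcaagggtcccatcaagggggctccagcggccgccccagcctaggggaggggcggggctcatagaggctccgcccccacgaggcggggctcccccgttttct
Gabarapl2 chr8:111940453-111940702, plus strand: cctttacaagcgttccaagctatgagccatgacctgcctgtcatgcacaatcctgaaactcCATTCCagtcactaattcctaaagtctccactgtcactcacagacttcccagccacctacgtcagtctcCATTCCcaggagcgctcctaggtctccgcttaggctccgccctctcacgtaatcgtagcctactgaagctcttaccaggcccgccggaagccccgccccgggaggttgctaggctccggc
Uvrag chr7:99141145-99141394, minus strand: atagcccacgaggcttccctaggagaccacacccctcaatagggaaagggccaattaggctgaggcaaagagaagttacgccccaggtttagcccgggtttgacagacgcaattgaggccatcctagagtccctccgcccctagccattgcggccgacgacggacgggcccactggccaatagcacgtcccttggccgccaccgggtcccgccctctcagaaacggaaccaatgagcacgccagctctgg
Gabarapl1 chr6:129532942-129533191, plus strand: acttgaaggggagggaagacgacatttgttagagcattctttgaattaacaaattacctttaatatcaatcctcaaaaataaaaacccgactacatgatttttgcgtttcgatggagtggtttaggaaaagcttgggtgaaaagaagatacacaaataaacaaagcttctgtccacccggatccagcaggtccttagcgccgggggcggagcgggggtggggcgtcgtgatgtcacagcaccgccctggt
Atg5 chr10:44268089-44268338, plus strand: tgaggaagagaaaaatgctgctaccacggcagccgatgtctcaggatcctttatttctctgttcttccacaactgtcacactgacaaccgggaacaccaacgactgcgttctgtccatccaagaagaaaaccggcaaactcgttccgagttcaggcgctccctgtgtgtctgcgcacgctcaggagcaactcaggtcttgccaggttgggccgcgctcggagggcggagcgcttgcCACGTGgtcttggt
RefSeq promoters were found for 8 of the 10 genes, and Map1lc3a and Becn1 were not among them. Both strands were searched for CACGTG, the E-box that TFE factors bind, for the longer CLEAR element of lysosomal genes, and for GGAATG, a motif of the TEAD factors through which YAP1 acts, read as CATTCC on the other strand. CACGTG stood in the Atg5 window, 14 to 9 bases before the start, and 6.02% of 32851 promoter windows of the same length held it. The CLEAR element, held by 0.533% of the windows, was not in any of the 8. CATTCC stood in the Gabarapl2 window at 189 to 184 and at 120 to 115 bases before the start, and GGAATG stood once in the window of Map1lc3b, while 12.6% of the windows held this motif on either strand. The windows of Sqstm1, Gabarapl1, Ulk1, Uvrag and Wipi1 held none of these letters, which says nothing of binding elsewhere.

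Sqstm1, the cargo receptor, had 954, 788 and 752 CPM in YAP1-TFE3 tumours and 450.2, 406 and 422 CPM in YAP1-FAM118B tumours. The level was 397, 385 and 331 CPM in YAP1-MAMLD1-dR3R1 tumours, against 468, 471 and 448 CPM in naive cortex. Every YAP1-TFE3 library lay above all 9 others, and the YAP1-FAM118B and naive libraries overlapped. The level in YAP1-TFE3 tumours was 1.80-fold that of naive cortex (log2 fold change 0.85 ± 0.14, adjusted p = 0.000331, edgeR). It was 1.95-fold that of YAP1-FAM118B tumours (0.96 ± 0.14, adjusted p = 0.000366, edgeR) and 2.24-fold that of YAP1-MAMLD1-dR3R1 tumours (1.16 ± 0.14, adjusted p = 0.000170). The lowest log2 fold change against naive cortex under any of 23 other settings was 0.57, and the call held in all of them. In YAP1-FAM118B tumours the difference from naive cortex was -0.12 ± 0.13 (adjusted p = 0.523, edgeR). In YAP1-MAMLD1-dR3R1 tumours it was -0.32 ± 0.13 (adjusted p = 0.0605, edgeR), where DESeq2, the RLE scaling and a filter of 1 CPM in 3 libraries did call it lower.

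The ATG8 genes code for the proteins that coat the growing membrane and hold the cargo receptors. Gabarapl2, of the GABARAP branch, had 243, 256 and 135 CPM in YAP1-TFE3 tumours and 52.9, 69.1 and 48.9 CPM in YAP1-FAM118B tumours. Its level was 41.1, 45.2 and 42.9 CPM in YAP1-MAMLD1-dR3R1 tumours, against 85.6, 86.0 and 98.9 CPM in naive cortex. The YAP1-TFE3 libraries were the highest and the other tumours lay below naive cortex, with no overlap with it on either side, and YAP1-TFE3 replicate 3 was the lowest of its group. It was 2.34-fold higher in YAP1-TFE3 tumours than in naive cortex (log2 fold change 1.23 ± 0.23, adjusted p = 0.000817, edgeR). It was 3.71-fold higher there than in YAP1-FAM118B tumours (1.89 ± 0.23, adjusted p = 0.000169) and 4.90-fold higher than in YAP1-MAMLD1-dR3R1 tumours (2.29 ± 0.23, adjusted p = 8.29e-05). In YAP1-MAMLD1-dR3R1 tumours it was 2.09-fold lower than in naive cortex (-1.07 ± 0.23, adjusted p = 0.00244, edgeR). In YAP1-FAM118B tumours it was 1.58-fold lower (-0.66 ± 0.22, adjusted p = 0.0492, edgeR). That call ended under 15 of 23 other settings, library size only and both other filters among them. It ended without any 1 of the 3 naive libraries, of the 3 YAP1-MAMLD1-dR3R1 libraries, of YAP1-FAM118B replicates 1 and 3 or of YAP1-TFE3 replicates 1 and 2, and the adjusted p was 0.0566 without both libraries that held Xist and Ddx3y.

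Gabarapl1, a GABARAP branch gene abundant in neurons, had 309, 355 and 283 CPM in YAP1-TFE3 tumours and 383, 503 and 321 CPM in YAP1-FAM118B tumours. Levels were 228, 198 and 122 CPM in YAP1-MAMLD1-dR3R1 tumours, against 693, 689 and 602 CPM in naive cortex. All 9 tumour libraries lay below all 3 naive libraries, and the YAP1-MAMLD1-dR3R1 libraries lay below the other tumours. It was 2.09-fold lower than in naive cortex in YAP1-TFE3 tumours (log2 fold change -1.07 ± 0.24, adjusted p = 0.00270, edgeR) and 3.62-fold lower in YAP1-MAMLD1-dR3R1 tumours (-1.85 ± 0.25, adjusted p = 0.000141). In YAP1-FAM118B tumours it was 1.64-fold lower (-0.72 ± 0.24, adjusted p = 0.0461, edgeR). The call ended under 14 of 23 other settings, library size only and both other filters among them, without any naive library, without YAP1-MAMLD1-dR3R1 replicate 2, without YAP1-FAM118B replicate 1 or 3 and without any YAP1-TFE3 library, and the adjusted p was 0.0567 without both libraries that held Xist and Ddx3y. Compared with YAP1-MAMLD1-dR3R1 tumours it was 2.20-fold higher in YAP1-FAM118B tumours (1.14 ± 0.24, adjusted p = 0.0121, edgeR), with an adjusted p of 0.0640 without both libraries that held Xist and Ddx3y. It was 1.73-fold higher in YAP1-TFE3 tumours (0.79 ± 0.24, adjusted p = 0.0253, edgeR). The last call ended under 12 of 23 other settings, among them library size only (adjusted p = 0.0922), upper-quartile factors (0.0579), no filter (0.0839), the filter of 1 CPM (0.0663) and a fit to the groups compared alone (0.0722), all with edgeR. It also ended without naive replicate 1, without YAP1-MAMLD1-dR3R1 replicate 2 or 3 and without any YAP1-TFE3 library, the log2 fold change being 0.39 without YAP1-MAMLD1-dR3R1 replicate 3 and 0.48 without YAP1-TFE3 replicate 2.

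Map1lc3a, of the LC3 branch, had 51.0, 51.5 and 28.3 CPM in YAP1-TFE3 tumours and 77.8, 77.4 and 75.4 CPM in YAP1-FAM118B tumours. Its levels were 44.3, 41.3 and 41.2 CPM in YAP1-MAMLD1-dR3R1 tumours, against 111, 103 and 88.4 CPM in naive cortex. Naive libraries were the highest, YAP1-FAM118B libraries came next without overlap, and the other tumours overlapped each other below them. It was 2.31-fold lower than in naive cortex in YAP1-TFE3 tumours (log2 fold change -1.21 ± 0.20, adjusted p = 0.000429, edgeR) and 2.38-fold lower in YAP1-MAMLD1-dR3R1 tumours (-1.25 ± 0.20, adjusted p = 0.000464). Compared with YAP1-FAM118B tumours it was 1.76-fold lower in YAP1-TFE3 tumours (-0.82 ± 0.20, adjusted p = 0.00694, edgeR), with an adjusted p of 0.0519 in a fit to the groups compared alone. It was 1.82-fold higher in YAP1-FAM118B than in YAP1-MAMLD1-dR3R1 tumours (0.86 ± 0.20, adjusted p = 0.0160, edgeR), and the adjusted p was 0.0535 without YAP1-MAMLD1-dR3R1 replicate 2, 0.0548 without replicate 3 of that group and 0.0722 without both libraries that held Xist and Ddx3y. In YAP1-FAM118B tumours the difference from naive cortex was -0.39 ± 0.20 (adjusted p = 0.163, edgeR).

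Map1lc3b, the LC3 form most often used to mark autophagosomes, varied least of the ATG8 genes, with 161, 158 and 154 CPM in YAP1-TFE3 tumours and 183, 182 and 177 CPM in YAP1-FAM118B tumours. The gene had 140, 149 and 158 CPM in YAP1-MAMLD1-dR3R1 tumours, against 185, 178 and 164 CPM in naive cortex. The tumours with YAP1-TFE3 and with YAP1-MAMLD1-dR3R1 lay below naive cortex without overlap, but the gaps were small. In the main fit with edgeR and TMM it passed the test in 0 of 6 comparisons, with an unadjusted p under 0.05 in 2 of them (YAP1-MAMLD1-dR3R1 against naive, -0.23 ± 0.095, and YAP1-FAM118B against YAP1-MAMLD1-dR3R1, 0.28 ± 0.095). DESeq2 called it in 4. It was lower than naive cortex in YAP1-TFE3 (log2 fold change -0.30) and YAP1-MAMLD1-dR3R1 tumours (-0.32). It was lower in YAP1-TFE3 than in YAP1-FAM118B tumours (-0.28) and higher in YAP1-FAM118B than in YAP1-MAMLD1-dR3R1 tumours (0.29). Against naive cortex it was called lower in YAP1-TFE3 tumours under 13 of 23 other settings. Among these were edgeR with each of the 3 other scalings, with both other filters and with a fit to the groups compared alone. Compared with YAP1-FAM118B tumours it was called lower there under 12 of 23, among them edgeR with the same scalings and filters. In YAP1-MAMLD1-dR3R1 against naive cortex the number was 8, and in YAP1-FAM118B against YAP1-MAMLD1-dR3R1 tumours it was 7.

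**Figure D1:**
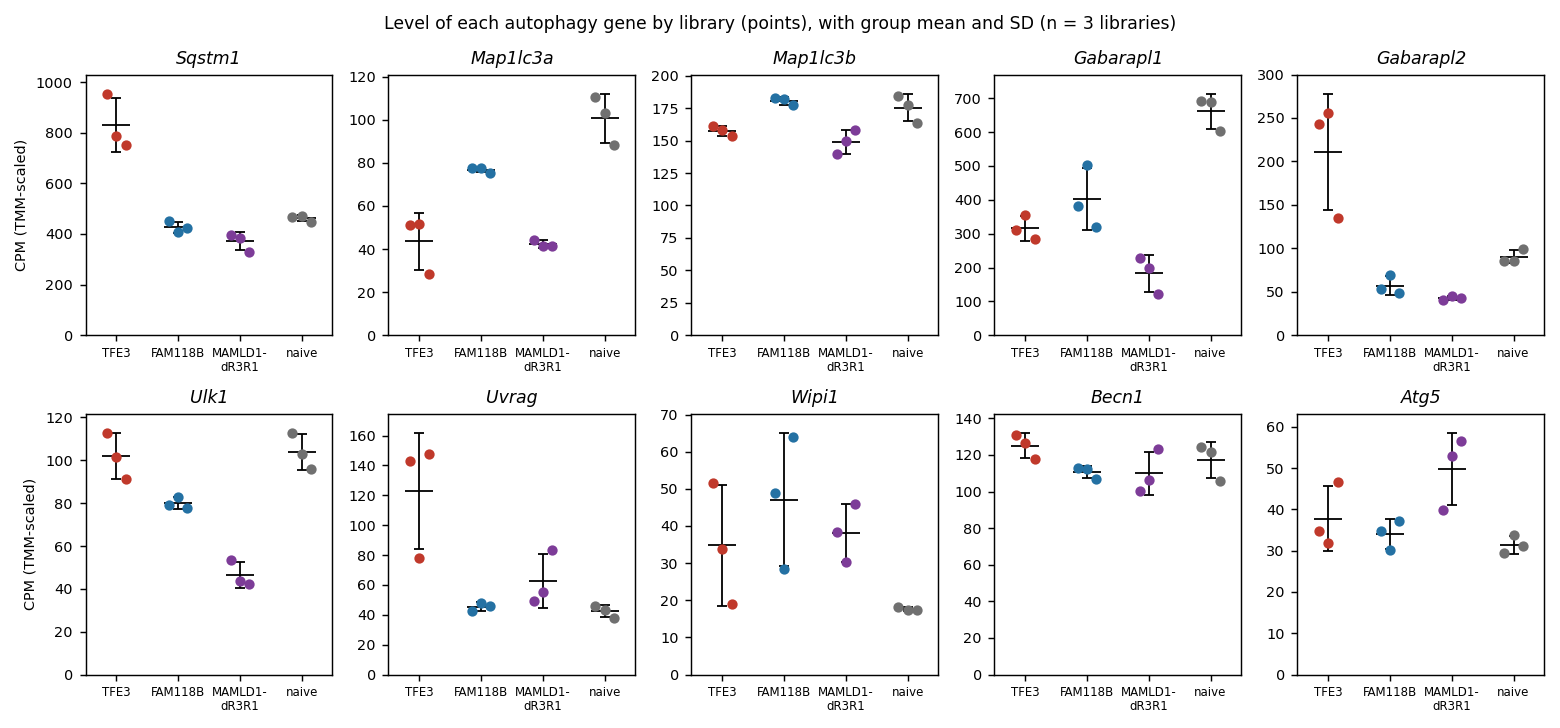
Level of each of the 10 genes in CPM (y axis, linear from 0) in each library (points) by group (x axis), with the mean and SD of the 3 libraries as a bar and whiskers. Sqstm1 and Gabarapl2 are highest in the 3 YAP1-TFE3 libraries, Gabarapl1 and Map1lc3a in the 3 naive libraries, while Becn1 stays between 100.3 and 131 CPM in all 12.

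The fifth ATG8 gene, Gabarap, is no member of the list but shares its role, and was 2.38-fold higher than in naive cortex in YAP1-TFE3 tumours (log2 fold change 1.25 ± 0.14, adjusted p = 4.15e-05, edgeR). It was 1.83-fold higher in YAP1-FAM118B tumours (0.88 ± 0.14, adjusted p = 0.00139, edgeR) and 2.49-fold higher in YAP1-MAMLD1-dR3R1 tumours (1.32 ± 0.14, adjusted p = 4.94e-05). The make-up of the family was described by dividing the CPM of each of the 5 genes by its exon length (GENCODE M21), which lets levels of different genes be compared. Gabarapl1 made up 30.9% ± 2.0 of the summed CPM per kb in YAP1-TFE3, 43.1% ± 7.3 in YAP1-FAM118B tumours and 25.1% ± 6.7 in YAP1-MAMLD1-dR3R1 tumours, against 58.2% ± 1.2 in naive cortex (SD, n = 3 each). Gabarap made up 34.9% ± 4.5 in YAP1-TFE3, 29.8% ± 7.1 in YAP1-FAM118B tumours and 51.5% ± 5.6 in YAP1-MAMLD1-dR3R1 tumours, against 13.2% ± 0.96 in naive cortex. Gabarapl1 had the largest mean share in naive cortex and YAP1-FAM118B tumours and Gabarap in YAP1-MAMLD1-dR3R1 tumours, while in YAP1-TFE3 tumours their ranges over libraries overlapped. Gabarapl2 made up 21.95% ± 4.6 in YAP1-TFE3, 6.64% ± 0.85 in YAP1-FAM118B tumours and 6.48% ± 0.41 in YAP1-MAMLD1-dR3R1 tumours, against 8.67% ± 1.3 in naive cortex. Of the LC3 genes, Map1lc3a made up 6.85% ± 1.4 in YAP1-TFE3, 13.6% ± 0.67 in YAP1-FAM118B tumours and 9.59% ± 0.32 in YAP1-MAMLD1-dR3R1 tumours against 14.5% ± 0.89 in naive cortex. Map1lc3b made up between 5.43% and 7.27% in the mean of every group. The summed level was 564 ± 71.3 CPM per kb in YAP1-TFE3, 509 ± 31.4 in YAP1-FAM118B tumours and 397 ± 15.7 in YAP1-MAMLD1-dR3R1 tumours, against 623 ± 36.3 in naive cortex. Lengths are those of the annotation, not of the transcripts made in each tissue, so the shares are a description without a test.

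**Figure D2:**
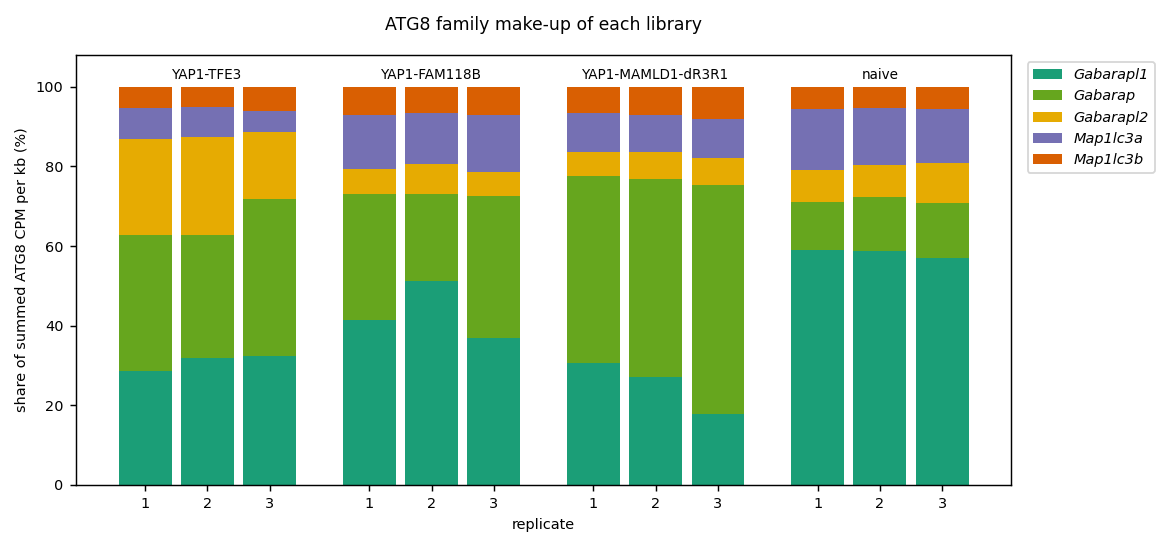
Share of each of the 5 ATG8 genes in their summed CPM per kb (y axis, percent) in each of the 12 libraries (x axis, replicate within group). Gabarapl1 holds 56.9 to 59.0% in the naive libraries and at most 51.1% in any tumour, and Gabarapl2 holds 16.6 to 24.8% in the YAP1-TFE3 libraries and at most 10.1% elsewhere.

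Ulk1, the kinase that starts autophagy, had 113, 101.7 and 91.3 CPM in YAP1-TFE3 tumours and 79.3, 83.0 and 77.9 CPM in YAP1-FAM118B tumours. It had 53.2, 43.8 and 42.0 CPM in YAP1-MAMLD1-dR3R1 tumours, against 113, 103 and 96.1 CPM in naive cortex. YAP1-TFE3 and naive libraries overlapped almost fully, and the YAP1-MAMLD1-dR3R1 libraries were the lowest. It was 2.24-fold lower in YAP1-MAMLD1-dR3R1 tumours than in naive cortex (log2 fold change -1.16 ± 0.13, adjusted p = 4.49e-05, edgeR), and the difference of YAP1-TFE3 tumours from naive cortex was -0.03 ± 0.12 (adjusted p = 0.843, edgeR). Under the 23 other settings the latter difference lay between -0.27 and -0.028 and was not called in any. Compared with YAP1-MAMLD1-dR3R1 tumours Ulk1 was 2.20-fold higher in YAP1-TFE3 tumours (1.14 ± 0.13, adjusted p = 0.000119, edgeR) and 1.73-fold higher in YAP1-FAM118B tumours (0.79 ± 0.12, adjusted p = 0.00589). In YAP1-FAM118B tumours it was 1.30-fold lower than in naive cortex (-0.38 ± 0.12, adjusted p = 0.0437, edgeR). That call ended under 16 of 23 other settings, library size only and both other filters among them. It ended without any 1 library other than YAP1-MAMLD1-dR3R1 replicate 1 and reached an adjusted p of 0.109 without both libraries that held Xist and Ddx3y. In YAP1-TFE3 tumours it was 1.27-fold higher than in YAP1-FAM118B tumours (0.35 ± 0.12, adjusted p = 0.0378, edgeR). That call ended under 19 of 23 other settings, DESeq2 and every other scaling among them, and without any 1 library other than naive replicate 3 and YAP1-MAMLD1-dR3R1 replicate 1. The log2 fold change was then as low as 0.043 without YAP1-TFE3 replicate 1, 0.053 without YAP1-TFE3 replicate 2, 0.20 without YAP1-TFE3 replicate 3, and 0.10 without naive replicate 1 or YAP1-MAMLD1-dR3R1 replicate 2 or 3.

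Of the lipid kinase complex, Uvrag, a partner of BECN1 that also acts in endosome traffic, had 143, 78.1 and 148 CPM in YAP1-TFE3 tumours and 42.2, 48.0 and 45.9 CPM in YAP1-FAM118B tumours. The level was 49.6, 55.2 and 83.5 CPM in YAP1-MAMLD1-dR3R1 tumours, against 45.9, 43.5 and 38.1 CPM in naive cortex. YAP1-TFE3 replicate 2, at 78.1 CPM, lay below YAP1-MAMLD1-dR3R1 replicate 3, so those groups overlapped, while no YAP1-TFE3 library overlapped YAP1-FAM118B or naive. It was 2.89-fold higher in YAP1-TFE3 tumours than in naive cortex (log2 fold change 1.53 ± 0.26, adjusted p = 0.000453, edgeR) and 2.71-fold higher than in YAP1-FAM118B tumours (1.44 ± 0.26, adjusted p = 0.00137). Compared with YAP1-MAMLD1-dR3R1 tumours it was 1.96-fold higher (0.97 ± 0.25, adjusted p = 0.0131, edgeR), but the adjusted p was 0.0608 without YAP1-MAMLD1-dR3R1 replicate 2 (log2 fold change 0.73) and 0.0600 without YAP1-TFE3 replicate 1 (0.69). It was 0.0596 in a fit to the groups compared alone (0.98). In YAP1-MAMLD1-dR3R1 tumours the difference from naive cortex was 0.56 ± 0.25 (adjusted p = 0.0747, edgeR).

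Becn1, the scaffold of that complex, ranged from 118 to 131 CPM in YAP1-TFE3, from 107 to 113 CPM in YAP1-FAM118B and from 100.3 to 123 CPM in YAP1-MAMLD1-dR3R1 tumours, against 106 to 124 CPM in naive cortex. All groups overlapped except YAP1-TFE3 and YAP1-FAM118B. Becn1 passed the test in 0 of 6 comparisons with edgeR, with DESeq2, and at an unadjusted p under 0.05, and its log2 fold changes lay between -0.09 and 0.19, each with an SE of 0.11. The small positive difference of YAP1-TFE3 from naive cortex, 0.09, turned negative under every other scaling tried.

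Wipi1, which binds the lipid that the kinase makes, had 51.5, 33.9 and 19.0 CPM in YAP1-TFE3 tumours and 48.8, 28.4 and 64.1 CPM in YAP1-FAM118B tumours. Its level was 38.3, 30.3 and 45.8 CPM in YAP1-MAMLD1-dR3R1 tumours, against 18.3, 17.4 and 17.3 CPM in naive cortex. Every tumour library lay above every naive library, but YAP1-TFE3 replicate 3, at 19.0 CPM, lay close to them, and the tumours overlapped each other. It was 2.67-fold higher in YAP1-FAM118B tumours than in naive cortex (log2 fold change 1.42 ± 0.37, adjusted p = 0.0161, edgeR). It was 2.16-fold higher in YAP1-MAMLD1-dR3R1 tumours (1.11 ± 0.36, adjusted p = 0.0219, edgeR) and 1.97-fold higher in YAP1-TFE3 tumours (0.98 ± 0.36, adjusted p = 0.0330). Leaving out 1 library ended each of these calls in some cases. In YAP1-FAM118B tumours that was naive replicate 2 or 3 or YAP1-FAM118B replicate 3 (adjusted p up to 0.0696, edgeR), and in YAP1-MAMLD1-dR3R1 tumours any naive library or replicate 3 of the tumours (up to 0.0808, edgeR). In YAP1-TFE3 tumours the call ended under 16 of 23 other settings, DESeq2 among them, and without any naive library, YAP1-MAMLD1-dR3R1 replicate 2 or 3, or YAP1-TFE3 replicate 1 or 2, the log2 fold change being 0.44 without YAP1-TFE3 replicate 1.

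Atg5, part of the enzyme that attaches ATG8 proteins to lipid, had 34.7, 31.8 and 46.6 CPM in YAP1-TFE3 tumours and 34.8, 30.2 and 37.1 CPM in YAP1-FAM118B tumours. Levels were 39.9, 52.8 and 56.5 CPM in YAP1-MAMLD1-dR3R1 tumours, against 29.4, 33.8 and 31.0 CPM in naive cortex. The YAP1-MAMLD1-dR3R1 libraries lay above the YAP1-FAM118B and naive libraries and overlapped those with YAP1-TFE3. It was 1.58-fold higher in YAP1-MAMLD1-dR3R1 tumours than in naive cortex (log2 fold change 0.66 ± 0.18, adjusted p = 0.00836, edgeR). In YAP1-FAM118B tumours it was 1.46-fold lower than in YAP1-MAMLD1-dR3R1 tumours (-0.55 ± 0.18, adjusted p = 0.0462, edgeR). That call ended under 15 of 23 other settings, both other filters and a fit to the groups compared alone among them. It ended without any 1 library other than YAP1-MAMLD1-dR3R1 replicate 1 and YAP1-TFE3 replicate 3, with an adjusted p of up to 0.196, and of 0.172 without both libraries that held Xist and Ddx3y.

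Counted over the 10 genes, 4 were called higher and 2 lower in YAP1-TFE3 tumours than in naive cortex, where 70.6% of all genes tested were called, 40.6% higher and 30% lower. In YAP1-FAM118B tumours 1 was higher and 3 were lower than in naive cortex, beside 29.7% of all genes, 21.3% higher and 8.45% lower. In YAP1-MAMLD1-dR3R1 tumours 2 were higher and 4 lower, beside 63.2% of all genes, 34.4% higher and 28.8% lower. Compared with YAP1-FAM118B tumours, 4 were higher and 1 lower in YAP1-TFE3 tumours, beside 51.7% of all genes, 28% higher and 23.7% lower. Compared with YAP1-MAMLD1-dR3R1 tumours, 5 were higher and 0 lower in YAP1-TFE3 tumours with edgeR and TMM (1 lower, Atg5, at an unadjusted p under 0.05 and with DESeq2), beside 39.5% of all genes, 22.6% higher and 16.9% lower. Atg5 was called lower there under 9 of 23 other settings, among them edgeR with each of the 3 other scalings and with both other filters. Against the same tumours 3 were higher and 1 lower in YAP1-FAM118B tumours, beside 26.2% of all genes, 12.7% higher and 13.5% lower. With 6 of 10 called, the comparisons of YAP1-TFE3 and of YAP1-MAMLD1-dR3R1 tumours with naive cortex lay near the background. So did YAP1-TFE3 against YAP1-FAM118B tumours, with 5 of 10, so these counts are no result about the list. The remaining counts, at 4 or 5 of 10, were not tested against the background. The median log2 fold change of the 10 was 0.18 in YAP1-TFE3, -0.10 in YAP1-FAM118B tumours and -0.28 in YAP1-MAMLD1-dR3R1 tumours against naive cortex, where the medians of all genes were 0.23, -0.05 and 0.06 in the same order. Between tumours it was 0.16 for YAP1-TFE3 against YAP1-FAM118B, 0.49 for YAP1-TFE3 against YAP1-MAMLD1-dR3R1 and 0.29 for YAP1-FAM118B against YAP1-MAMLD1-dR3R1, beside 0.08, -0.05 and -0.05 over all genes. The count in YAP1-FAM118B against naive cortex was 0 without naive replicate 2 or 3 or YAP1-FAM118B replicate 3. It was 1 without naive replicate 1, YAP1-MAMLD1-dR3R1 replicate 2, YAP1-FAM118B replicate 1 or YAP1-TFE3 replicate 1 or 2. It was 2 without YAP1-MAMLD1-dR3R1 replicate 3, and 1 without both libraries that held Xist and Ddx3y. Against YAP1-MAMLD1-dR3R1 tumours, the count in YAP1-TFE3 tumours was 3 without YAP1-MAMLD1-dR3R1 replicate 2 or YAP1-TFE3 replicate 1, and the count in YAP1-FAM118B tumours was 2 without YAP1-MAMLD1-dR3R1 replicate 2 or 3 and 1 without both libraries that held Xist and Ddx3y.

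**Figure D3:**
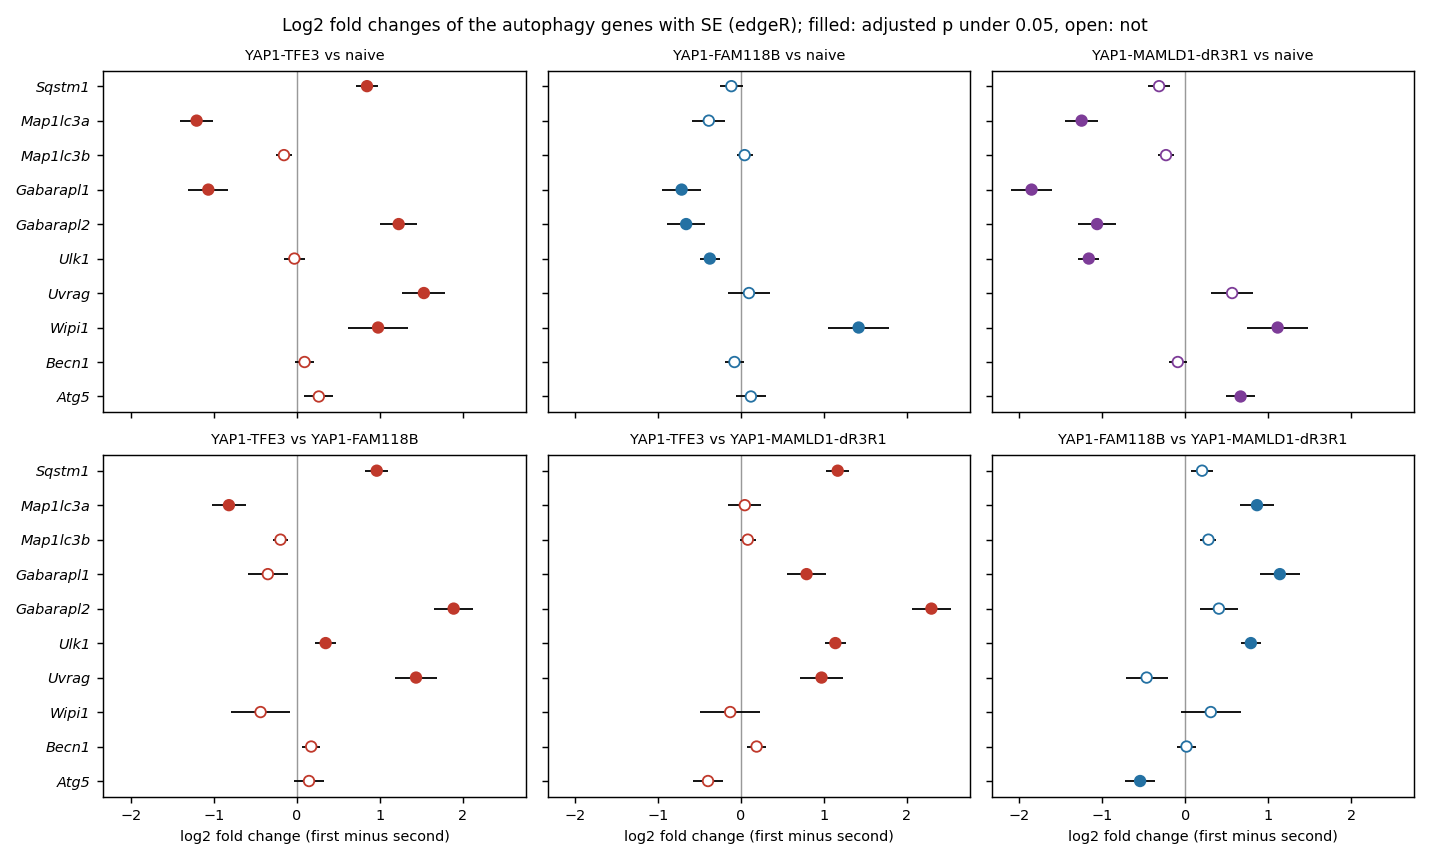
Log2 fold change (x axis) with its SE (lines) of the 10 genes (y axis) in the 6 comparisons, first group minus second, edgeR, with filled points where the adjusted p was under 0.05. In the comparison of YAP1-TFE3 with YAP1-MAMLD1-dR3R1 tumours the called points, Sqstm1, Gabarapl1, Gabarapl2, Ulk1 and Uvrag, lie at 0.79 to 2.29, whereas in YAP1-TFE3 tumours against naive cortex Gabarapl2 lies at 1.23 and Gabarapl1 at -1.07.

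Every tumour library had a lower summed level of neuronal markers and a higher one of microglia and macrophage markers than every naive library. The summed level of 10 neuronal markers was 106 to 1219 CPM in YAP1-TFE3, 5189.8 to 7465 CPM in YAP1-FAM118B and 546 to 1783 CPM in YAP1-MAMLD1-dR3R1 tumours, against 8419 to 12822 CPM in naive cortex. Of these 10 markers, 9 were called lower than in naive cortex in YAP1-TFE3, 1 in YAP1-FAM118B tumours and 6 in those with YAP1-MAMLD1-dR3R1. Map1lc3a and Gabarapl1 were likewise highest in naive cortex and next in YAP1-FAM118B tumours by the mean, but Gabarapl1 was lowest in YAP1-MAMLD1-dR3R1 tumours, while the 2 lowest neuronal sums were those of YAP1-TFE3 replicates 1 and 3. The part of neurons in these differences was not tested. The summed level of 10 microglia and macrophage markers was 1372 to 4256 CPM in YAP1-TFE3, 1813 to 2100.3 CPM in YAP1-FAM118B and 5746 to 8648 CPM in YAP1-MAMLD1-dR3R1 tumours, against 206 to 268 CPM in naive cortex. Of these, 9 were called higher than in naive cortex in YAP1-TFE3, 9 in YAP1-FAM118B tumours and 10 in those with YAP1-MAMLD1-dR3R1. Sqstm1 and Gabarapl2 were by the mean highest in the YAP1-TFE3 tumours and lowest in the YAP1-MAMLD1-dR3R1 tumours, which had the highest sums of these immune markers. Cd68, a lysosomal protein of macrophages, went the other way, averaging 558 CPM in YAP1-TFE3 and 186 CPM in YAP1-MAMLD1-dR3R1 tumours, and was the 1 of the 10 markers called higher in YAP1-TFE3 than in YAP1-MAMLD1-dR3R1 tumours, while 9 were called lower. The part of immune cells in these differences was not tested. Sums for 6 myelin markers were 562 to 895 CPM in YAP1-TFE3, 1993 to 4537 CPM in YAP1-FAM118B and 1789 to 4127 CPM in YAP1-MAMLD1-dR3R1 tumours, against 5509 to 11115 CPM in naive cortex. Of these, 6 were called lower in YAP1-TFE3, 2 in YAP1-FAM118B tumours and 4 in those with YAP1-MAMLD1-dR3R1. Sums for 6 astrocyte markers were 904 to 2603 CPM in YAP1-TFE3, 1883 to 4021 CPM in YAP1-FAM118B and 3948 to 6507 CPM in YAP1-MAMLD1-dR3R1 tumours, against 3512 to 4550.1 CPM in naive cortex. Of these, 1 was called higher and 4 lower in YAP1-TFE3, 0 of 6 in YAP1-FAM118B tumours (edgeR, also at an unadjusted p under 0.05) and 1 higher and 1 lower in those with YAP1-MAMLD1-dR3R1. Their sum covers opposite changes: Aldh1l1 averaged 771 CPM in YAP1-TFE3 tumours against 61.2 CPM in naive cortex, and in YAP1-MAMLD1-dR3R1 tumours Gfap averaged 3271 CPM and Slc1a2 539 CPM, against 235 and 2788 CPM in naive cortex. Cd68 and these 3 markers are named after their values were seen. Fibroblast markers summed to 385 to 1638 CPM in YAP1-TFE3, 3026 to 14039 CPM in YAP1-FAM118B and 3058 to 4885 CPM in YAP1-MAMLD1-dR3R1 tumours, against 99.7 to 158 CPM in naive cortex. Of these 5, 1 was called higher than in naive cortex in YAP1-TFE3, 2 in YAP1-FAM118B tumours and 3 in those with YAP1-MAMLD1-dR3R1. Col1a2 averaged 736, 5722 and 2614 CPM in the tumours in that order, against 27.1 CPM in naive cortex. Pdgfra averaged 47.3, 68.7 and 184 CPM, against 73.3 CPM. Both are also named after their values were seen. Endothelial markers summed to 100.9 to 174 CPM in YAP1-TFE3, 60.2 to 119 CPM in YAP1-FAM118B and 160.0 to 296 CPM in YAP1-MAMLD1-dR3R1 tumours, against 53.6 to 58.4 CPM in naive cortex. No marker of the 6 lists was at 0 in any library, and the naive libraries held every neuronal and myelin marker of their label.

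**Figure D4:**
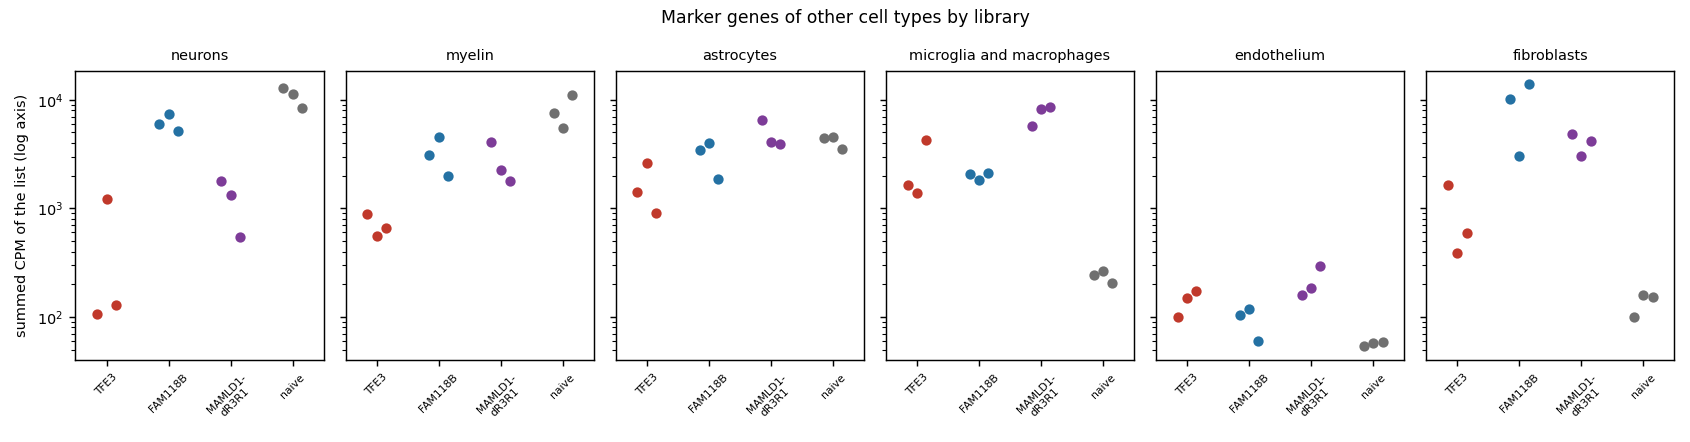
Summed CPM (y axis, log scale) of the marker genes of 6 cell types in each library (points) by group (x axis). The naive libraries hold the most neuronal and myelin RNA and the least microglia and macrophage RNA, at 206 to 268 CPM, and YAP1-FAM118B tumours are the nearest to them for neurons.

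Beyond the 10, 70 other genes of the pathway were described by 8 roles, and all 70 were tested. In YAP1-TFE3 tumours 20 were called higher and 26 lower than in naive cortex, with a median log2 fold change of -0.17. In YAP1-FAM118B tumours 6 were higher and 13 lower, with a median of -0.16. In YAP1-MAMLD1-dR3R1 tumours 12 were higher and 32 lower, with a median of -0.31. Called genes thus made up 65.7%, 27.1% and 62.9% of the list in that order, beside 70.6%, 29.7% and 63.2% of all genes. In YAP1-FAM118B tumours the count of 19 was 5 without naive replicate 1 or YAP1-FAM118B replicate 1, 4 without YAP1-FAM118B replicate 3, 10 without naive replicate 2 or 3 and 12 without YAP1-TFE3 replicate 1. Each gene of this list called higher or lower below passed edgeR's test, with an adjusted p of 0.0366 or less, and the values in brackets are log2 fold changes with their standard errors.

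The other genes of the ULK1 complex were lower in YAP1-TFE3 tumours than in naive cortex in 4 of 4 cases, Ulk2, Atg13, Rb1cc1 and Atg101, beside 30% of all genes, while Ulk1 itself was not called. In YAP1-FAM118B tumours 1 of the 4 was lower, beside 8.45% of all genes, and in YAP1-MAMLD1-dR3R1 tumours 3 of the 4, beside 28.8%. Rb1cc1 and Atg101 are named here after their values were seen. Atg13, the adaptor of that complex, had 46.3, 47.6 and 47.3 CPM in YAP1-TFE3 tumours and 80.2, 85.3 and 78.6 CPM in YAP1-FAM118B tumours. Its levels were 48.3, 46.8 and 43.6 CPM in YAP1-MAMLD1-dR3R1 tumours, against 111, 107 and 96.5 CPM in naive cortex. It was lower than in naive cortex in all 3 tumour groups, by 2.22-fold in YAP1-TFE3 (log2 fold change -1.15 ± 0.092), by 1.29-fold in YAP1-FAM118B (-0.36 ± 0.091) and by 2.26-fold in YAP1-MAMLD1-dR3R1 tumours (-1.18 ± 0.092). Atg9a, which carries lipid to the growing membrane, was 2.22-fold lower in YAP1-TFE3 (-1.15 ± 0.15) and 3.14-fold lower in YAP1-MAMLD1-dR3R1 tumours (-1.65 ± 0.16). Pik3c3, the kinase of the lipid complex, was 1.77-fold lower in YAP1-TFE3 tumours (-0.82 ± 0.11). Of the 7 genes in its role, Pik3c3 included, 1 was higher and 5 were lower there, beside 40.6% and 30% of all genes. In YAP1-FAM118B tumours 2 of the 7 were lower, beside 8.45%, and in YAP1-MAMLD1-dR3R1 tumours 4, beside 28.8%.

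Of 13 other receptors, 3 were higher and 3 lower in YAP1-TFE3 tumours than in naive cortex, and of 9 genes for ATG9, lipid transfer and WIPI proteins 2 were higher and 4 lower, beside 40.6% of all genes higher and 30% lower. Those described next had the smallest adjusted p in a comparison. Optn, a receptor for damaged mitochondria and bacteria, had 176, 152 and 134 CPM in YAP1-TFE3 tumours and 15.5, 14.6 and 11.7 CPM in YAP1-FAM118B tumours. The gene had 21.98, 19.9 and 17.9 CPM in YAP1-MAMLD1-dR3R1 tumours, against 20.5, 19.6 and 27.5 CPM in naive cortex. All YAP1-TFE3 libraries lay above all others. The mean level was higher by 6.83-fold over naive cortex (log2 fold change 2.77 ± 0.18), 11.1-fold over YAP1-FAM118B tumours (3.47 ± 0.19) and 7.73-fold over YAP1-MAMLD1-dR3R1 tumours (2.95 ± 0.18). Tmem41b, a lipid scramblase of the endoplasmic reticulum, had 123, 118 and 137 CPM in YAP1-TFE3 tumours and at most 34.5 CPM in any other library. It was 3.99-fold higher than in naive cortex (1.995 ± 0.18), 4.83-fold higher than in YAP1-FAM118B tumours (2.27 ± 0.18) and 4.54-fold higher than in YAP1-MAMLD1-dR3R1 tumours (2.18 ± 0.18). Retreg1, a receptor that delivers endoplasmic reticulum to autophagosomes, was 5.74-fold higher in YAP1-TFE3 than in YAP1-FAM118B tumours (2.52 ± 0.33), with YAP1-TFE3 replicate 1 at 518 CPM and replicates 2 and 3 at 214 and 217 CPM. Tex264, another such receptor, was 2.18-fold higher in YAP1-TFE3 than in YAP1-MAMLD1-dR3R1 tumours (1.12 ± 0.15). Ccpg1, a further one, was 1.57-fold lower (-0.65 ± 0.12) and Atg16l2, a relative of the ATG5 partner Atg16l1, was 2.17-fold lower (-1.12 ± 0.18).

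Vamp8, a SNARE that fuses autophagosomes with lysosomes and also serves secretion in blood cells, was higher than in naive cortex in all tumour groups, with 96.5, 74.6 and 111 CPM in YAP1-TFE3 tumours and 44.9, 26.7 and 49.5 CPM in YAP1-FAM118B tumours. It had 65.1, 91.8 and 97.0 CPM in YAP1-MAMLD1-dR3R1 tumours, against 5.09, 6.95 and 9.28 CPM in naive cortex. The tumours did not overlap naive cortex, and the log2 fold changes against it were 3.72 ± 0.32 in YAP1-TFE3, 2.50 ± 0.30 in YAP1-FAM118B tumours and 3.57 ± 0.32 in YAP1-MAMLD1-dR3R1 tumours. Microglia and macrophage markers were higher in the same tumours, as given above, and their part in the level of Vamp8 was not tested. Bcl2, an inhibitor of BECN1 and of cell death, was 2.85-fold higher than in naive cortex in YAP1-MAMLD1-dR3R1 tumours (1.51 ± 0.17). Atg4a, a protease that trims ATG8 proteins, was 2.37-fold higher in YAP1-FAM118B tumours (1.24 ± 0.24), at 3.67 CPM against 1.55 CPM in naive cortex, and its relative Atg4c was 2.31-fold lower in YAP1-MAMLD1-dR3R1 tumours (-1.21 ± 0.13). Also lower than in naive cortex in YAP1-FAM118B tumours were Vps41, a tether for fusion with the lysosome (-0.50 ± 0.11), Tsc1, a brake on the kinase mTOR (-0.57 ± 0.14), and Optn (-0.69 ± 0.17).

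**Figure D5:**
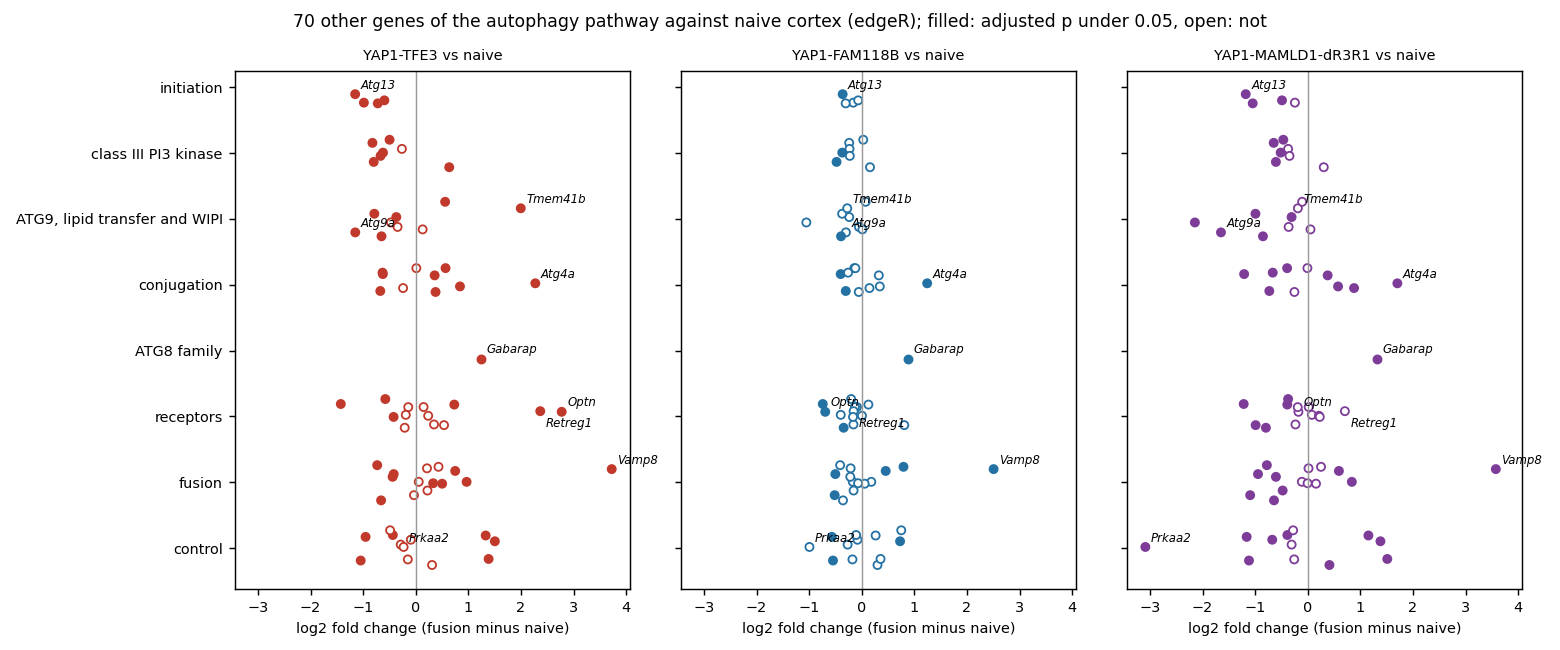
Log2 fold change against naive cortex (x axis) of 70 other autophagy genes, grouped by role (y axis, points spread only to avoid overlap), in the 3 tumour groups, with filled points where edgeR's adjusted p was under 0.05. Optn, Tmem41b and Retreg1 stand at 2.77, 1.995 and 2.37 in YAP1-TFE3 tumours, and Vamp8 at 2.50 or more in all 3.

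Between the tumours, 21 of the 70 were called higher and 17 lower in YAP1-TFE3 than in YAP1-FAM118B tumours, with a median log2 fold change of 0.02. These were 54.3% of the list, beside 51.7% of all genes, 28% higher and 23.7% lower. Of 14 genes for fusion with the lysosome 7 were higher and 0 lower, beside that 28% and 23.7%. Against naive cortex 5 of the 14 were higher and 4 lower in YAP1-TFE3 tumours, beside 40.6% and 30% of all genes. Of 10 conjugation genes 4 were higher and 2 lower than in YAP1-FAM118B tumours, and of 12 genes that control autophagy 3 and 4. The 4 other genes of the ULK1 complex were again all lower than in YAP1-FAM118B tumours, beside 23.7%, Atg13 by 1.73-fold (-0.79 ± 0.091). Atg9a was 1.80-fold lower there (-0.85 ± 0.15) and Pik3c3 1.499-fold lower (-0.58 ± 0.11). Of the 7 genes in the role of Pik3c3, 0 were higher and 3 lower, beside 28% and 23.7% of all genes. Compared with YAP1-MAMLD1-dR3R1 tumours, 21 were higher and 3 lower in YAP1-TFE3 tumours, with a median of 0.14 and a count of 15 instead of 24 without YAP1-TFE3 replicate 1. The 24 were 34.3% of the list, beside 39.5% of all genes. Of 14 genes for fusion with the lysosome 5 were higher and 0 lower, beside 22.6% and 16.9% of all genes. Of the 4 other genes of the ULK1 complex 0 were higher and 1 lower with edgeR, Ulk2, by 1.67-fold (-0.74 ± 0.18). Of the 7 genes in the role of Pik3c3, 0 were called in either direction with edgeR. In YAP1-FAM118B compared with YAP1-MAMLD1-dR3R1 tumours 20 were higher and 8 lower, with a median of 0.14, or 40% of the list beside 26.2% of all genes. The smallest adjusted p among those higher were of Atg13 (0.82 ± 0.091), Atg9a (1.35 ± 0.16) and Atg4c (0.81 ± 0.13), though not the largest fold changes, while Bcl2 (-1.15 ± 0.16), Sesn2, a stress-induced inhibitor of mTOR complex 1 (-0.89 ± 0.18), and Atg16l2 (-0.73 ± 0.18) were lower. That count of 28 was 13 without YAP1-MAMLD1-dR3R1 replicate 2, 17 without YAP1-MAMLD1-dR3R1 replicate 3, 15 without YAP1-FAM118B replicate 1, 12 without YAP1-FAM118B replicate 2, 18 without YAP1-FAM118B replicate 3 and 7 without both libraries that held Xist and Ddx3y.

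Per kb of exon, Sqstm1 was the most abundant of the 10 genes in YAP1-TFE3 tumours, at 294 ± 38.2 CPM per kb, and in YAP1-MAMLD1-dR3R1 tumours, at 131 ± 12.6, while Gabarapl1 was the most abundant in YAP1-FAM118B tumours, at 221 ± 50.9, and in naive cortex, at 363 ± 28.3 (SD, n = 3 each). In naive cortex Sqstm1 followed at 164 ± 4.4, then Map1lc3a at 90.6 ± 10.2 and Gabarapl2 at 53.8 ± 4.5. In YAP1-TFE3 tumours Sqstm1 was followed by Gabarapl1 at 174 ± 20.1 and Gabarapl2 at 126 ± 39.7. Gabarapl1 lay above Gabarapl2 in each of these libraries, at 170, 195 and 155 against 145, 153 and 80.2 CPM per kb. Wipi1 was the least abundant in YAP1-TFE3 tumours, at 8.14 ± 3.8, and in naive cortex, at 4.13 ± 0.13.

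Over the 12 libraries, the genes with a pattern most like Gabarapl2 by Pearson correlation of log2 CPM among 11163 candidates included Tmem9 (0.982) and Pebp1 (0.978). Those most like Gabarapl1 were Tnk2 (0.993), Klc1 (0.991) and Mapre3 (0.989), and those most like Uvrag were Lcmt2 (0.980), Dnaaf2 (0.976) and Brd7 (0.965). Among the 10 themselves, Sqstm1 and Gabarapl2 had a correlation of 0.93 and Gabarapl1 and Atg5 one of -0.88. The libraries fall into groups and share depth and tissue make-up, so these values describe the pattern over these 12 libraries only.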

How the data were processed

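Total RNA of 12 mouse samples was sequenced, with 3 libraries in each of 4 groups taken from the labels. The values deposited by the authors are raw counts for each gene symbol. Per the submitters' processing notes, HTSeq and build mm10 were used. The sources used here do not give the aligner, versions, annotation, strand setting or treatment of reads shared by gene copies, so overlapping, antisense and near-identical genes cannot be told apart. The labels' extraction protocol describes cultured cells while the design describes frozen tumours, and for naive samples the field for tissue says tumour where the titles say naive. Titles were followed.

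Counts were tested with edgeR 4.0.16 (limma 3.58.1, R 4.3.3): filterByExpr with a minimum count of 10, TMM factors (0.875 to 1.07, lowest in YAP1-TFE3), a quasi-likelihood fit to all 12 libraries and 6 contrasts. The SE is the size of the log2 fold change divided by the square root of F. CPM uses the scaled library size. The procedure was tested on simulated counts in which a small set of genes was raised and all others were left unchanged. That setting cannot probe the scaling where a large share of genes differs. Alternatives were DESeq2 1.42.0, other scalings and filters, a test against a 1.5-fold change, a replicate block and leaving out each library. Leaving out both libraries that held Xist and Ddx3y was an alternative added after seeing the data. The genes and lists were chosen with earlier results of these data known; motifs, promoter windows and per-kb shares were chosen after the levels had been seen. Named were all 10 genes, Gabarap, and of the 70 others the 3 with the smallest adjusted p among those higher and among those lower in each contrast; the 3 genes most like each of the 3 members with the widest range of group means, of which 1 is not reported here; Rb1cc1 and Atg101 complete a count. Symbols Rubcn and Retreg1 were matched through synonyms. Exon lengths are from GENCODE M21 and promoters from RefSeq, both on GRCm38. Every column of values in the files was used.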

Additional observations from a re-analysis of the deposited data

How the results depend on the processing

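The calls of Sqstm1, Gabarapl2 and Uvrag in YAP1-TFE3 against naive cortex and against YAP1-FAM118B tumours, and of Sqstm1, Gabarapl2 and Ulk1 in YAP1-TFE3 against YAP1-MAMLD1-dR3R1 tumours, held under all 23 alternatives, as did Map1lc3a and Gabarapl1 in YAP1-TFE3 and in YAP1-MAMLD1-dR3R1 tumours against naive cortex and Gabarapl2 and Ulk1 in YAP1-MAMLD1-dR3R1 tumours. Scaling matters most for YAP1-TFE3: the median log2 fold change of all genes moved by -0.19 against naive cortex, -0.19 against YAP1-MAMLD1-dR3R1 and -0.21 against YAP1-FAM118B tumours with library size only, by -0.15 against naive cortex with RLE, and by -0.12 and -0.14 against naive cortex and YAP1-MAMLD1-dR3R1 tumours with upper-quartile factors. The share of higher calls was 57.2% in YAP1-TFE3 against YAP1-MAMLD1-dR3R1 tumours, but 42.0% with library size only and 45.7% with upper-quartile factors, and 54.2% against YAP1-FAM118B tumours, but 41.3% with library size only. Testing against a 1.5-fold change lowered the counts of the 10 genes called to 0 in YAP1-FAM118B against naive, 0 in YAP1-FAM118B against YAP1-MAMLD1-dR3R1 and 3 in YAP1-TFE3 against either other tumour. The counts of pathway genes against naive became 18 for YAP1-TFE3, 2 for YAP1-FAM118B and 21 for YAP1-MAMLD1-dR3R1, with 8 in YAP1-TFE3 against YAP1-FAM118B, 9 in YAP1-TFE3 against YAP1-MAMLD1-dR3R1 and 3 in YAP1-FAM118B against YAP1-MAMLD1-dR3R1. With only the groups compared in the fit, 3 of the 10 were called in YAP1-TFE3 against either other tumour. Of the 4 called in YAP1-FAM118B against naive, 1 was called with library size only, with no filter, with a filter of 1 CPM in 3 libraries, and without both libraries that held Xist and Ddx3y. Leaving both out gave 1 in YAP1-FAM118B against YAP1-MAMLD1-dR3R1, with 7 pathway genes, and 24 pathway genes in YAP1-TFE3 against YAP1-FAM118B. DESeq2 called 34 pathway genes in YAP1-FAM118B against naive. Over the fits without 1 library, the 10 genes gave 0 to 3 calls in YAP1-FAM118B against naive, 2 to 6 in YAP1-FAM118B and 3 to 6 in YAP1-TFE3 against YAP1-MAMLD1-dR3R1, and the pathway genes 4 to 23, 12 to 32 and 15 to 24. Every value that changed sign was uncalled. In YAP1-TFE3 against naive, Becn1 was -0.0531 with RLE, -0.0230 with upper-quartile factors, -0.0937 with library size only, -0.0727 with no filter, -0.10 with the filter of 1 CPM, -0.11 with only the groups compared and -0.0534 with DESeq2. In YAP1-FAM118B against naive, Map1lc3b was -0.0272 with RLE and -0.0267 with DESeq2. In YAP1-FAM118B against YAP1-MAMLD1-dR3R1, Becn1 was -0.0448 with upper-quartile factors. In YAP1-TFE3 against YAP1-MAMLD1-dR3R1, Map1lc3a was -0.0100 with RLE, -0.0875 with upper-quartile factors, -0.14 with library size only, -0.11 with no filter, -0.11 with the filter of 1 CPM and -0.0105 with DESeq2; Map1lc3b was -0.0616 with upper-quartile factors, -0.11 with library size only, -0.0848 with no filter and -0.0799 with the filter of 1 CPM; Becn1 was -0.0013 with library size only. In YAP1-TFE3 against YAP1-FAM118B, Becn1 was -0.0390 with library size only, -0.0205 with no filter and -0.0810 with the filter of 1 CPM, and Atg5 was -0.0711, -0.0614 and -0.12 in the same order. Without 1 library, Becn1 ranged from -0.15 to 0.12 in YAP1-TFE3 and from -0.15 to 0.019 in YAP1-FAM118B against naive, from -0.13 to 0.19 in YAP1-TFE3 against YAP1-FAM118B, and from -0.024 to 0.19 in YAP1-TFE3 and -0.049 to 0.17 in YAP1-FAM118B against YAP1-MAMLD1-dR3R1. Atg5 ranged from -0.069 to 0.32 in YAP1-TFE3 against naive and from -0.25 to 0.21 against YAP1-FAM118B, Map1lc3b from -0.0048 to 0.14 in YAP1-FAM118B against naive, and against YAP1-MAMLD1-dR3R1 in YAP1-TFE3 Map1lc3b from -0.13 to 0.080, Map1lc3a from -0.29 to 0.15 and Wipi1 from -0.64 to 0.033. The cause of these changes was not tested. No clear pairing by replicate number was seen: 4 of 18 same-number pairs had deviations correlated over 0.1 (range -0.11 to 0.32) and 4 of 12 samples were closest to their own number. With 3 libraries in each group this check cannot exclude a pairing, and the labels state none. With the replicate block, the calls among the 10 genes were the same 6, 4, 6, 5, 5 and 4 as without it, and pathway calls in YAP1-FAM118B against naive fell to 11, against 19. Depth, at 19850220 counts or more, left all 10 genes above the filter.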
